A study of Mus musculus with 4 samples.

Results

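The BAFF and APRIL axis of mucosal plasma cells was followed through 10 genes, chosen by symbol among the 27998 gene features of each library, and all 10 were found. They are the ligands Tnfsf13b (BAFF) and Tnfsf13 (APRIL), the receptors Tnfrsf13c (BAFF-R), Tnfrsf13b (TACI) and Tnfrsf17 (BCMA), the transcription factors Prdm1 (Blimp-1) and Irf4, the IgA assembly and export genes Jchain and Pigr, and the homing receptor Ccr10. They were measured by droplet single-cell RNA sequencing of nasal mucosa cells isolated by CD45, from C57BL/6 mice aged 8 weeks, for which the labels name no altered gene. There was 1 library for each of 4 treatments, Vehicle, Vehicle-OVA, Ribavirin and Ribavirin-OVA, where OVA is ovalbumin, the egg-white protein used here as the allergen, and ribavirin is an antiviral drug given as a spray to clear viruses of the nose. The number of mice behind a library was not given, so no test between treatments was possible, and every interval below covers counting error only.

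BAFF and APRIL are made mainly by myeloid and stromal cells and keep B-lineage cells alive. Mature B cells rely on BAFF through BAFF-R, TACI binds both ligands, and BCMA marks plasma cells and binds APRIL in particular. Blimp-1 and Irf4 turn an activated B cell into a plasma cell. In mucosa, the J chain joins IgA into dimers, the polymeric immunoglobulin receptor encoded by Pigr carries those dimers across the epithelium, and CCR10 draws IgA plasma cells to epithelia that release CCL28. No immunoglobulin segment or constant gene was among the features, so the antibody class of a cell could not be read.

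After filtering, 70070 cells remained, with 24426 in the Vehicle, 17183 in the Vehicle-OVA, 19703 in the Ribavirin and 8758 in the Ribavirin-OVA library. The deposited totals ran from 91742940 to 171873110 unique molecular identifiers (UMIs, each standing for 1 captured transcript), and the median per cell from 3389 to 4952. Of 78493 different barcodes, 633 were shared by 2 libraries and 3 by 3 libraries. Cells were clustered without the 10 members and the other genes of their pathway, and clusters were named from fixed markers. Levels are CPM, the usual scaling of a gene's UMIs to the summed UMIs of its class in that library, with an exact Poisson 95% interval.

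The starts of a ligand and a receptor gene are printed here, 1 with a myeloid source and 1 of plasma cells. They are the 2 members in which the motif marked below was found, and only entries with it are shown. Both are RefSeq sequences of 300 bases on the plus strand of GRCm38.p6, read 5′ to 3′, from chr8:10006383-10006682 and chr16:11313559-11313858. Capitals mark the interferon-stimulated response element searched for on both strands, spelled GAAA, any 2 bases, GAAA; its first base lies at -16 and -101 from the start site. The Tnfsf13b entry is an alternate start of the gene.
Tnfsf13b: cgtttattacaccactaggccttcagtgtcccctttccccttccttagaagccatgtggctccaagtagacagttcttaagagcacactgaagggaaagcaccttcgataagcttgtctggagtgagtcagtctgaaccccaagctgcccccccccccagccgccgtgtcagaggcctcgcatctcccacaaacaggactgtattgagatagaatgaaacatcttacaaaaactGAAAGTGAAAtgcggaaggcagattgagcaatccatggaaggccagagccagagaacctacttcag
Tnfrsf17: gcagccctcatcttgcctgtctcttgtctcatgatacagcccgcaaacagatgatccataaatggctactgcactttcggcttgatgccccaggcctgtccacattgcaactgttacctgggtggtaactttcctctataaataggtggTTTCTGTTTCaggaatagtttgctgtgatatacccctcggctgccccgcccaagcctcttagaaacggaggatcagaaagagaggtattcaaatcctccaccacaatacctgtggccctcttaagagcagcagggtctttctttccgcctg
These letters stood in 2 of the 9 members that had a promoter sequence, as none was given for Ccr10, and in 3.44% of all 32851 promoters. The 9 members had 10 promoters, and a match in any of them counted for the member, whereas the share of all is per promoter. The E-box CAGGTG stood in 4 of 9 (Jchain, Pigr, Prdm1 and Tnfrsf13c) and in 20.2% of all, and the PRDM1 core GTGAAAG in 1 of 9 (Tnfrsf13c) and in 4.24% of all. The Ets-IRF composite element, the NF-kB site and the octamer stood in none of the 9. A match says only that the letters are in the window.

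Each of the 10 members except Tnfsf13, whose UMIs were too few, had a favoured class, and the 4 libraries mostly shared it. Plasma cell-like cells held 94.4% to 96.5% of the Tnfrsf17 UMIs, 94.7% to 97.7% of the Ccr10 UMIs and 95.3% to 97.5% of the Jchain UMIs of a library. Tnfrsf13c was highest in B cell-like cells, Tnfrsf13b in plasmacytoid dendritic cell (pDC)-like cells, Pigr in epithelial-like cells, and Prdm1 and Irf4 in plasma cell-like cells, in each of the 4 libraries. Among the classes with at least 50 cells in every library, Tnfsf13b was highest in macrophage-like cells in 3 libraries. In the Ribavirin-OVA library it was higher in neutrophil-like (21.5 CPM, 18.2 to 25.3) than in macrophage-like cells (15.1 CPM, 13.3 to 17.1). Stromal-like cells stood at 25.5 CPM there, from only 20 cells and 9 UMIs (11.7 to 48.5).

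**Figure D1:**
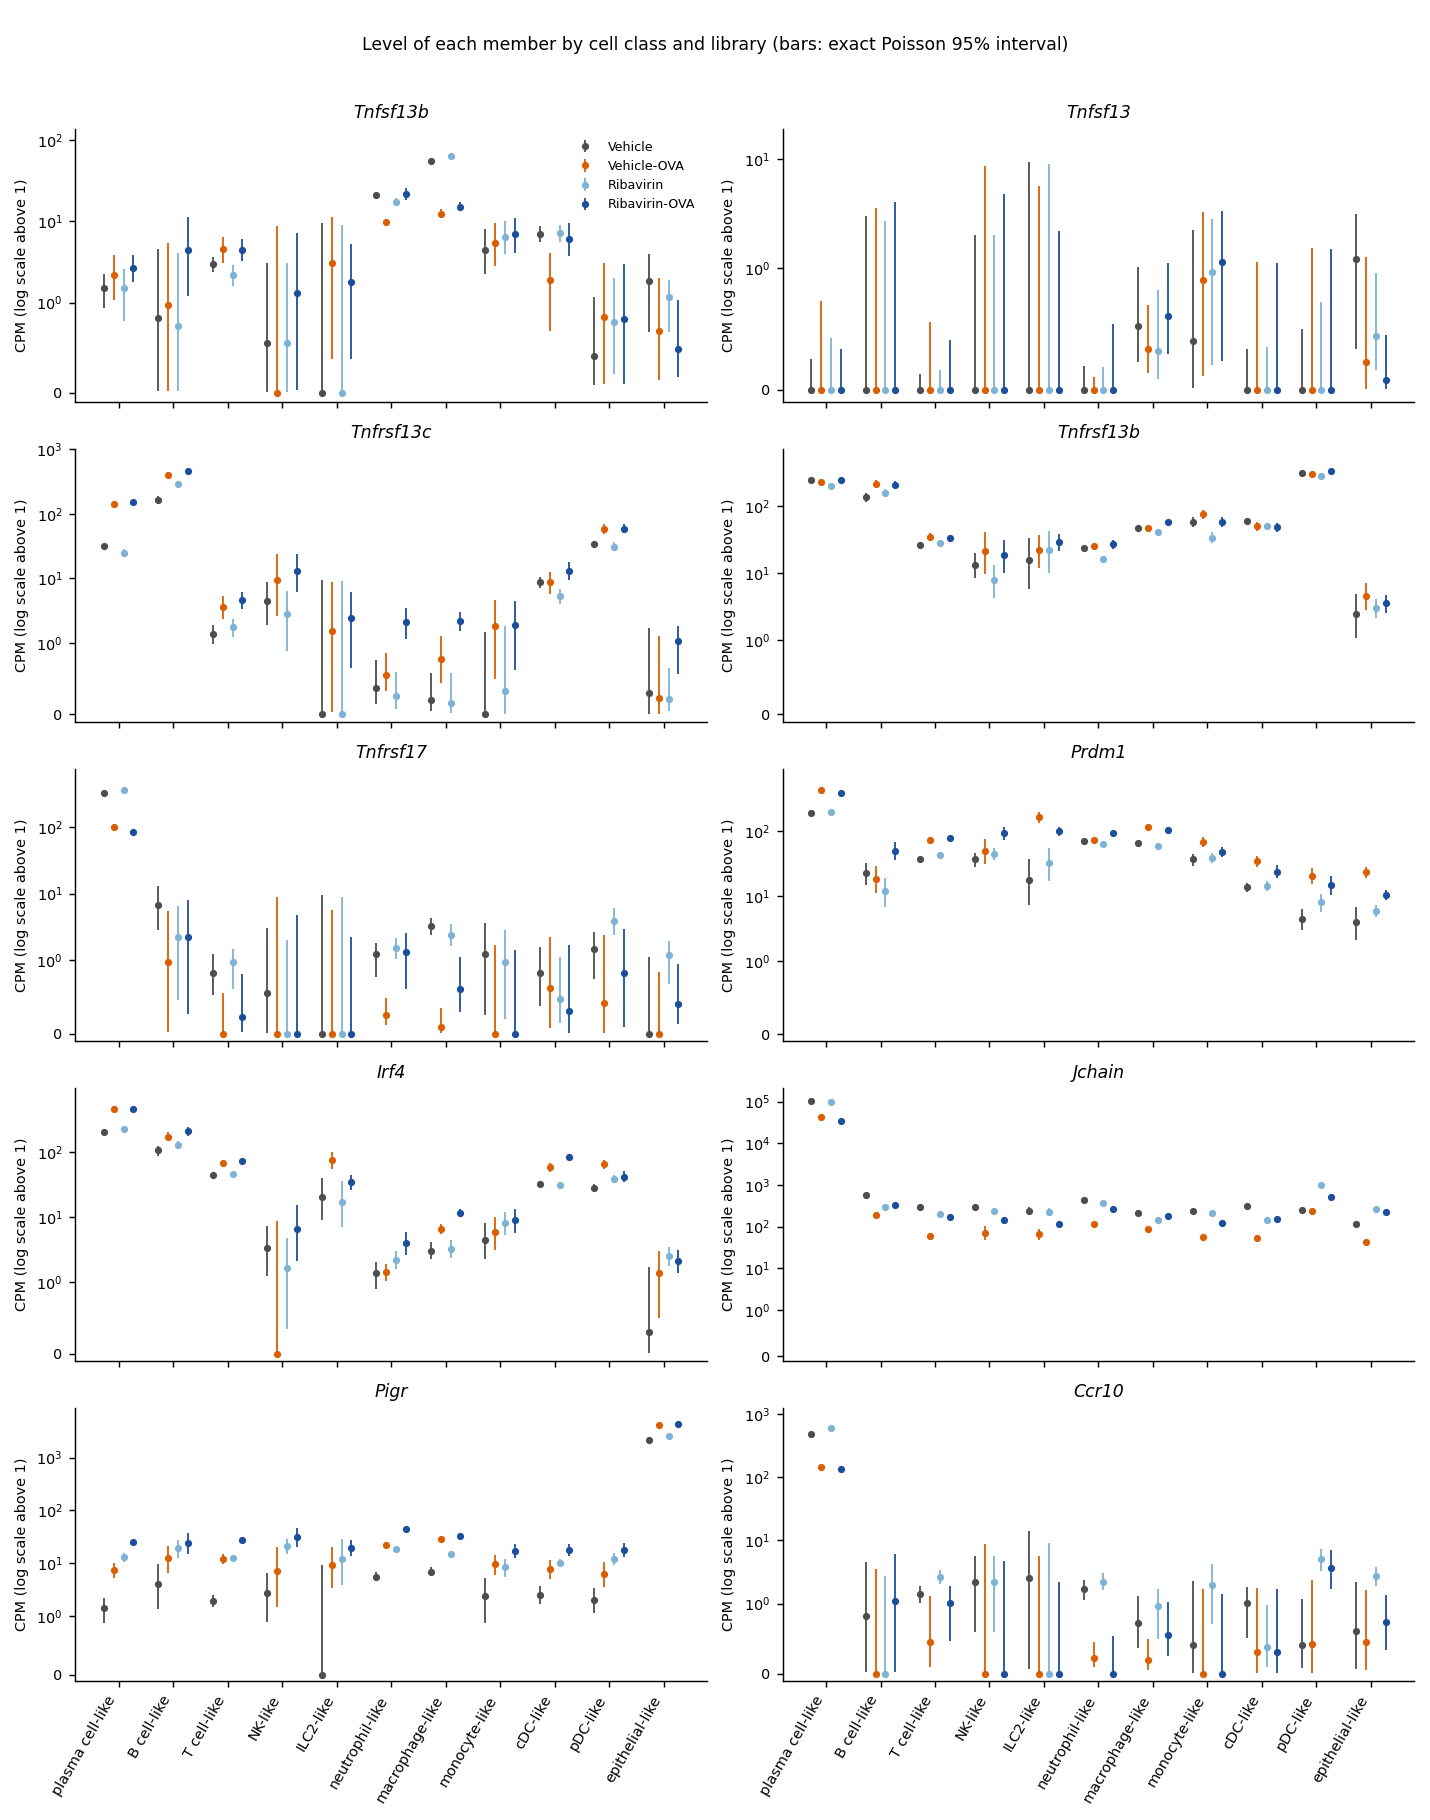
CPM of each of the 10 members (vertical axis, log scale above 1) in the 11 cell classes with at least 50 cells in every library (horizontal axis); colours are the 4 libraries and bars the exact Poisson 95% interval. Tnfrsf17, Ccr10 and Jchain stand out in plasma cell-like cells, Tnfsf13b in macrophage-like and neutrophil-like cells and Pigr in epithelial-like cells, while Tnfsf13 stays near 0 throughout.

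Plasma cell-like cells numbered 1308 in the Vehicle, 311 in the Vehicle-OVA, 627 in the Ribavirin and 526 in the Ribavirin-OVA library. These were 5.35%, 1.81%, 3.18% and 6.01% of the cells kept, shares that a CD45+ isolation and a library's other cells also set. All 10 plasma cell markers were detected in each library, with summed levels of 11200 to 15773 CPM. The summed B cell markers in these cells ran from 895 to 1022 CPM, against 6549 to 7806 CPM in B cell-like cells. Markers of pDCs stood higher, at 1517, 1627, 1639 and 1529 CPM, against 9721 to 11930 CPM in pDC-like cells. Monocyte markers stood at 1762, 1104, 1659 and 729 CPM, against 8596 to 10865 CPM in monocyte-like cells. Markers of neutrophils reached 1903 CPM in the Vehicle-OVA library and 464 to 1117 CPM in the others. Those of conventional dendritic cells (cDC) were at 165 and 243 CPM in the OVA libraries against 38.3 and 41.3 CPM in the others. The part of any of these in the results was not tested.

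The plasma cell-like cells of the OVA libraries lay largely in another cluster than those of the libraries without OVA. Cluster 13, led by Jchain, Prg2 and Ccr10, held 85.9% of the class in the Vehicle and 84.7% in the Ribavirin library, but 18.0% in Vehicle-OVA and 4.94% in Ribavirin-OVA. Cluster 25, led by Slpi, Pou2af1 and Mzb1, held 65.6% and 64.3% in Vehicle-OVA and Ribavirin-OVA, against 0.612% and 0.638% in Vehicle and Ribavirin. Cluster 26, led by cell-cycle genes such as Mki67 and Top2a, was present in every library, at 13.5%, 16.4%, 14.7% and 30.8% of the class. It is therefore the cluster in which the libraries could be set side by side with the fewest gaps, from 176, 51, 92 and 162 cells.

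BAFF transcripts came from macrophage-like, neutrophil-like and unnamed cells, none of which held most of them in any library. The level in macrophage-like cells was about 4 times lower in the OVA libraries. Tnfsf13b stood at 54.4 CPM in the Vehicle, 12.4 in the Vehicle-OVA, 63.5 in the Ribavirin and 15.1 in the Ribavirin-OVA macrophage-like cells, from 825, 256, 789 and 248 UMIs. The 2 OVA libraries were low and the 2 others high, with no overlap of their intervals. Vehicle-OVA over Vehicle gave a ratio of 0.228 (95% interval 0.197 to 0.262) and Ribavirin-OVA over Ribavirin 0.238 (0.205 to 0.275). The ribavirin pairs were close to even, at 1.17 (1.06 to 1.29) without OVA and 1.22 (1.02 to 1.46) with OVA.

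The 2 macrophage clusters differed in this respect. Cluster 8, led by Ccl12, Ccl7 and Vcam1 and carrying the complement gene C1qc, held 96.4% and 94.6% of the class in Vehicle and Ribavirin but 8.16% and 13.7% in Vehicle-OVA and Ribavirin-OVA. In the OVA libraries 91.8% and 86.3% of it lay in cluster 5, whose leading genes were Ccl24, Arg1 and Fn1. In cluster 8, Tnfsf13b was at 55.3 CPM in Vehicle, 62.0 in Vehicle-OVA, 66.5 in Ribavirin and 49.6 in Ribavirin-OVA. The ratio there was 1.12 (0.929 to 1.34) for Vehicle-OVA over Vehicle, an interval that includes 1, and 0.746 (0.625 to 0.887) for Ribavirin-OVA over Ribavirin, lower with OVA but nearer to 1 than in the whole class. In cluster 5 it was at 26.0, 6.36, 11.8 and 6.80 CPM, with ratios of 0.245 (0.135 to 0.487) in the vehicle pair, close to the whole class, and 0.575 (0.280 to 1.37) in the ribavirin pair. Only 56 and 65 cells, with 12 and 8 UMIs, stood behind the values without OVA.

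**Figure D2:**
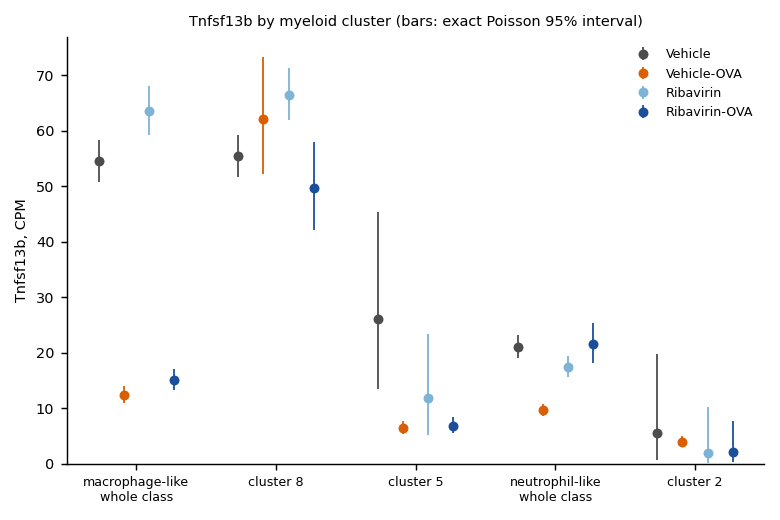
Tnfsf13b CPM (vertical axis) in macrophage-like cells and their clusters 8 and 5, and in neutrophil-like cells and their cluster 2 (horizontal axis), with 1 point per library and exact Poisson 95% intervals. The whole macrophage-like class splits at 12.4 and 15.1 CPM with OVA against 54.4 and 63.5 CPM without, whereas the 4 points of cluster 8 lie between 49.6 and 66.5 CPM.

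In neutrophil-like cells Tnfsf13b stood at 21.1 CPM in Vehicle, 9.67 in Vehicle-OVA, 17.4 in Ribavirin and 21.5 in Ribavirin-OVA, so that the Vehicle-OVA library alone was low. Vehicle-OVA over Vehicle was 0.459 (0.396 to 0.532) and Ribavirin-OVA over Vehicle-OVA 2.23 (1.82 to 2.71), while Ribavirin-OVA over Ribavirin was 1.24 (1.01 to 1.50). These cells also differed in makeup: cluster 2, led by Il1rn, Ccl3 and Cxcl3, held 49.9% of the class in Vehicle-OVA and 2.38%, 2.94% and 16.8% in Vehicle, Ribavirin and Ribavirin-OVA, and its level in Vehicle-OVA was 3.84 CPM. In cluster 1, led by Siglecf, the levels were 18.4, 11.8, 14.8 and 21.9 CPM. In neutrophil-like cells the median log2 ratio of all genes was -0.62 for Vehicle-OVA over Vehicle and 0.78 for Ribavirin-OVA over Vehicle-OVA, beside -1.12 and 1.16 for Tnfsf13b. With that median set to 0, Tnfsf13b was no longer past 2-fold in either pair.

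Unnamed clusters also held a large share. Cluster 4, led by Ly6i, Lyz2 and class II genes, was at 21.9, 12.99, 17.4 and 27.5 CPM, and its 642 and 357 UMIs in Vehicle and Ribavirin were more than those of all neutrophil-like cells there, 399 and 344. Cluster 20, led by the neutrophil granule genes Ngp and Camp, was at 33.1, 17.3, 38.0 and 64.2 CPM, from 32, 28, 91 and 150 UMIs. In that cluster the Vehicle-OVA library was the low one and Ribavirin-OVA the high one. The level in cDC-like cells was lower, at 7.05, 1.87, 7.14 and 6.09 CPM. Cells left unnamed held 36.7%, 18.4%, 32.3% and 30.3% of a library's Tnfsf13b UMIs, macrophage-like cells 36.2%, 31.6%, 40.4% and 32.3%, and neutrophil-like cells 17.5%, 41.4%, 17.6% and 19.0%. Over all cells kept, the level was 15.1, 8.77, 12.5 and 9.17 CPM, lower in both OVA libraries. Plasma cell-like cells themselves stood at 1.50 to 2.65 CPM.

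In macrophage-like cells, a ratio of at least 2 or at most 0.5 (with 1 CPM added, for genes with at least 20 UMIs over the pair) was met by 4 of the 7 members that could be judged for Vehicle-OVA over Vehicle, where 16.4% of all genes met it. These were Tnfsf13b, Tnfrsf17 and Jchain, all lower, and Pigr, higher. For Ribavirin-OVA over Ribavirin it was 5 of 9 (12.3% of all genes), with Tnfsf13b and Tnfrsf17 lower and Tnfrsf13c, Irf4 and Pigr higher. The ribavirin pairs gave 0 of 8 (0.753%) and 1 of 7, Jchain (2.74%). The counts for Tnfrsf17, 49, 2, 30 and 10 UMIs, and Tnfrsf13c, 3, 16, 2 and 36 UMIs, were small. Free plasma cell RNA, at the share that Jchain showed in neutrophil-like cells, would give 20.9, 5.71, 17.0 and 10.4 UMIs of Tnfrsf17 and 2.01, 7.93, 1.16 and 18.6 of Tnfrsf13c. Jchain in macrophage-like cells was at 216, 87.2, 147 and 178 CPM. That was 0.494, 0.760, 0.407 and 0.675 times the neutrophil-like level, so that share may overstate free RNA here. The part of free RNA in the Jchain and Pigr ratios of macrophage-like cells was not tested. In neutrophil-like cells, 4 of 9 members were past 2-fold for Vehicle-OVA over Vehicle (38.7% of all genes), 2 of 8 for Ribavirin-OVA over Ribavirin (10.1%), 1 of 8 for Ribavirin over Vehicle (0.965%) and 3 of 7 for Ribavirin-OVA over Vehicle-OVA (37.0%). Tnfsf13b, Jchain, Pigr, Ccr10 and Irf4 made up these neutrophil counts, and only Pigr was called in 3 of the 4 pairs. With the median of all genes set to 0, the neutrophil counts were 2, 1, 1 and 0 in the same order of pairs. Of all genes, 26.8%, 8.01%, 1.64% and 11.6% were then past 2-fold. The share of all genes past 2-fold that were higher then moved from 16.0% to 53.9%, from 76.6% to 28.0%, from 86.6% to 96.3% and from 93.6% to 16.6%.

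APRIL transcripts were hardly detected. Tnfsf13 had 20, 10, 25 and 16 UMIs in the whole Vehicle, Vehicle-OVA, Ribavirin and Ribavirin-OVA libraries, of which macrophage-like cells held 8, 7, 4 and 10. No UMI fell in plasma cell-like, B cell-like, T cell-like, natural killer (NK)-like or neutrophil-like cells. In plasma cell-like cells a count of 0 allows up to 0.204, 0.594, 0.346 and 0.274 CPM. The gene (GENCODE M21, chr11:69682846-69685784, minus strand) lies wholly inside Tnfsfm13 (chr11:69682577-69696098), the read-through gene it forms with Tnfsf12, and reads that fit more than 1 of them may have been left out of the count. Tnfsfm13 itself had 191, 115, 216 and 125 UMIs and Tnfsf12 3681, 1930, 2937 and 1913. Whether Tnfsf13 was low or uncounted could not be told apart.

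Among the receptors, BAFF-R was higher and BCMA lower in the plasma cell-like cells of both OVA libraries, and TACI changed little. Tnfrsf13c stood at 31.3 CPM in Vehicle, 140 in Vehicle-OVA, 24.8 in Ribavirin and 151 in Ribavirin-OVA, from 460, 707, 215 and 1648 UMIs. The 2 OVA libraries lay well above the 2 others. The ratio was 4.48 (3.97 to 5.04) for Vehicle-OVA over Vehicle and 6.08 (5.27 to 7.04) for Ribavirin-OVA over Ribavirin. Ribavirin over Vehicle was 0.792 and Ribavirin-OVA over Vehicle-OVA 1.07 (0.984 to 1.17), an interval that includes 1.

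Tnfrsf17 went the other way, at 326 CPM in Vehicle, 101 in Vehicle-OVA, 364 in Ribavirin and 84.1 in Ribavirin-OVA. Again the OVA libraries stood apart from the others, this time below them. Its ratio was 0.310 (0.282 to 0.339) for Vehicle-OVA over Vehicle and 0.231 (0.215 to 0.249) for Ribavirin-OVA over Ribavirin, with 1.12 (1.07 to 1.17) and 0.834 (0.748 to 0.932) for the ribavirin pairs. Tnfrsf13b was at 242, 227, 200 and 243 CPM, with no split by OVA: its ratio was 0.940 (0.879 to 1.01) in the vehicle pair and 1.22 (1.15 to 1.29) in the ribavirin pair. Both lie below the median of all genes in these cells, which was 0.47 on the log2 scale in each OVA pair.

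Plasma cell-like cells of the OVA libraries were the deeper ones, with medians of 9968.5, 15104, 12606 and 18486.5 UMIs per cell. After each cell was thinned to 1000 UMIs, a Tnfrsf17 UMI was seen in 26.2% (23.8% to 28.7%), 7.90% (5.08% to 11.6%), 28.1% (24.6% to 31.8%) and 8.90% (6.59% to 11.7%) of plasma cell-like cells. Before thinning they were 80.1%, 37.9%, 87.2% and 44.5%, against at most 0.478% of neutrophil-like cells, whose median depth was 2297 to 2862 UMIs. For Tnfrsf13c the thinned shares were 3.02%, 12.0%, 2.87% and 10.3% and the unthinned ones 25.2%, 61.7%, 23.9% and 66.2%, with at most 0.605% in neutrophil-like cells. Thinning left out 17, 20, 0 and 9 cells. At this depth both receptors were seen together in 1.01%, 0%, 1.12% and 0.193% of plasma cell-like cells, beside products of their separate shares of 0.791%, 0.951%, 0.806% and 0.912%.

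**Figure D3:**
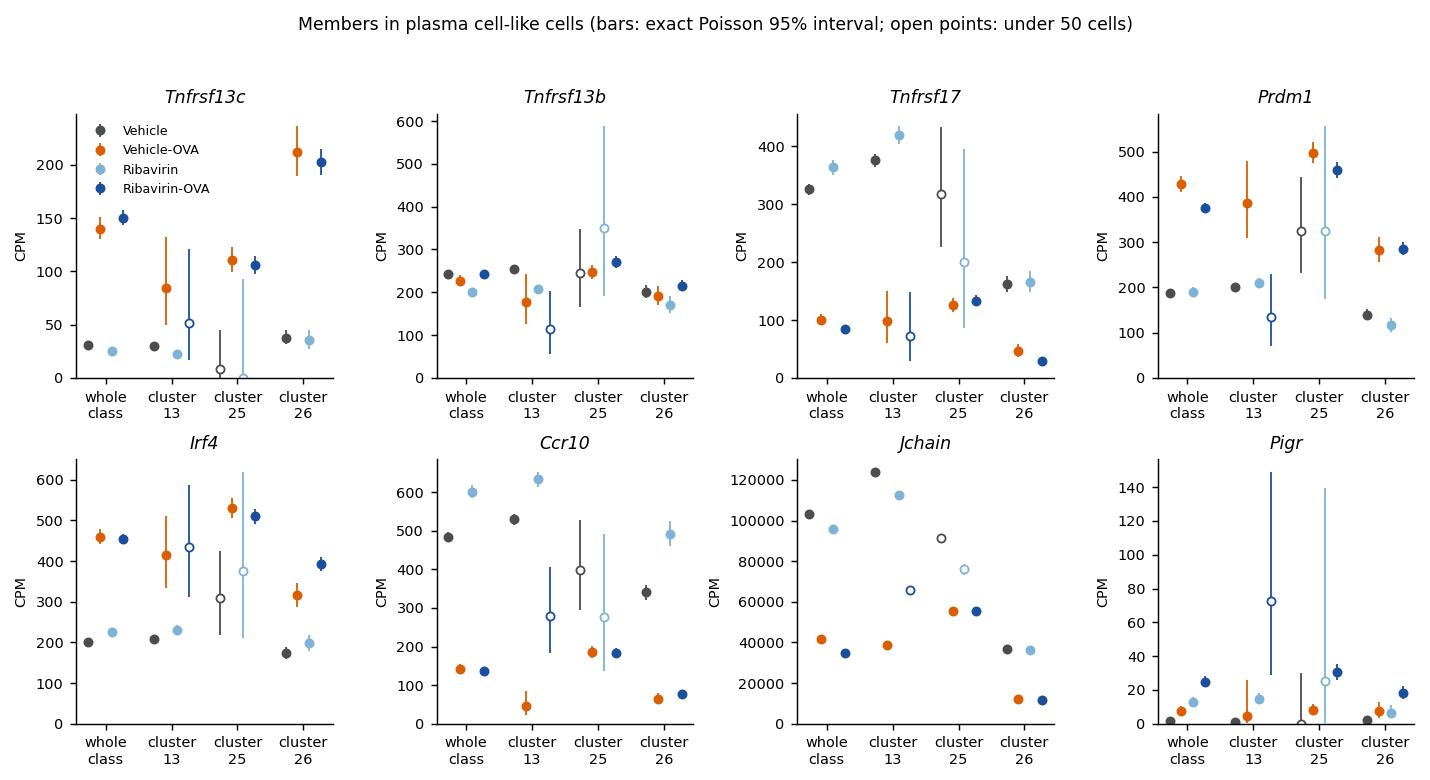
CPM of 8 members (vertical axis of each panel) in the whole plasma cell-like class and in its clusters 13, 25 and 26 (horizontal axis), with 1 point per library and exact Poisson 95% intervals; open points rest on under 50 cells. Tnfrsf13c is higher and Tnfrsf17, Ccr10 and Jchain lower in the OVA libraries, in the whole class and in cluster 26 alike.

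In B cell-like cells, where BAFF-R is the receptor of mature B cell survival, Tnfrsf13c stood at 164 CPM in Vehicle, 403 in Vehicle-OVA, 288 in Ribavirin and 462 in Ribavirin-OVA. The Vehicle library was the low one. With a mitochondrial limit of 5%, B cell-like cells fell from 313, 245, 330 and 119 to 247, 69, 261 and 23. The fall was largest in the OVA libraries, which limits all OVA values of this class. The ratio was 2.47 (2.08 to 2.94) for Vehicle-OVA over Vehicle, 1.61 (1.40 to 1.85) for Ribavirin-OVA over Ribavirin and 1.76 (1.48 to 2.10) for Ribavirin over Vehicle. Tnfrsf13b was at 135, 211, 154 and 206 CPM there, and Tnfrsf17 at 6.61, 0.967, 2.21 and 2.21 CPM from 8 UMIs at most. In this class 2 of 5 members were past 2-fold for Vehicle-OVA over Vehicle (24.4% of all genes), Tnfrsf13c higher and Jchain lower. The other pairs gave 1 of 6 each, with 17.4% of all genes for Ribavirin-OVA over Ribavirin (Prdm1 higher), 5.60% for Ribavirin over Vehicle (Pigr higher) and 7.94% for Ribavirin-OVA over Vehicle-OVA (Prdm1 higher). The medians of all genes were 0.44 and 0.26 on the log2 scale in the vehicle and ribavirin OVA pairs, and with them set to 0 the Tnfrsf13c ratio was no longer past 2-fold.

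Tnfrsf13b reached its highest level outside the B lineage, in pDC-like cells, at 305, 295, 277 and 330 CPM. These 4 values lie close together. It was lower in cDC-like cells (47.5 to 59.2 CPM), macrophage-like cells (40.1 to 58.0 CPM), T cell-like cells (26.0 to 34.3 CPM) and neutrophil-like cells (15.8 to 26.6 CPM). Tnfrsf13c in pDC-like cells was at 33.6, 58.8, 31.0 and 59.0 CPM, with ratios of 1.75 (1.41 to 2.16) and 1.90 (1.51 to 2.40) in the vehicle and ribavirin OVA pairs. In order of level after B cell-like cells, pDC-like and plasma cell-like cells overlapped without OVA, and plasma cell-like cells came before pDC-like cells with OVA.

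Prdm1 and Irf4, the factors of the plasma cell programme, were both about 2 times higher in plasma cell-like cells of the OVA libraries. Prdm1 stood at 188 CPM in Vehicle, 428 in Vehicle-OVA, 191 in Ribavirin and 375 in Ribavirin-OVA. Irf4 stood at 202, 460, 225 and 455 CPM, with the same grouping of high and low libraries. For Vehicle-OVA over Vehicle the ratio was 2.28 (2.16 to 2.42) for Prdm1 and 2.28 (2.16 to 2.41) for Irf4. For Ribavirin-OVA over Ribavirin it was 1.97 (1.86 to 2.08) and 2.02 (1.92 to 2.13). The median of all genes was itself raised in these pairs, and with it set to 0 neither factor was past 2-fold.

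Prdm1 was not particular to plasma cells. Macrophage-like cells stood at 65.5, 113, 59.2 and 103 CPM, with ratios of 1.72 (1.60 to 1.85) and 1.73 (1.59 to 1.89) in the OVA pairs. T cell-like cells stood at 36.5, 71.9, 42.7 and 77.1 CPM, with 1.97 (1.76 to 2.19) and 1.80 (1.63 to 1.99). Group 2 innate lymphoid cell (ILC2)-like cells, sources of type 2 cytokines, showed a wider split than macrophage-like and T cell-like cells. They stood at 17.9, 161, 31.8 and 97.9 CPM from 96, 80, 84 and 175 cells. Their ratios were 8.97 (4.20 to 22.9) and 3.08 (1.75 to 5.91). In B cell-like cells Prdm1 was at 22.3, 18.4, 11.8 and 49.8 CPM from only 27, 19, 16 and 45 UMIs, and the Ribavirin-OVA library alone was high.

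Irf4, which also serves type 2 dendritic cells and activated T cells, followed the same direction in several classes. B cell-like cells stood at 106, 173, 128 and 208 CPM, with ratios of 1.64 (1.30 to 2.07) and 1.62 (1.31 to 2.00) in the OVA pairs. In cDC-like cells it was at 31.9, 57.9, 31.3 and 83.8 CPM, with 1.82 (1.51 to 2.18) and 2.67 (2.27 to 3.15). T cell-like cells stood at 44.4, 67.8, 46.2 and 73.7 CPM. pDC-like cells differed between the pairs, at 28.0 and 65.5 CPM in Vehicle and Vehicle-OVA but 38.2 and 41.8 CPM in Ribavirin and Ribavirin-OVA. Whether the pairs differ beyond the spread of libraries could not be tested.

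Jchain was the most abundant member transcript of the plasma cell-like class and lower there with OVA. It stood at 103160 CPM in Vehicle, 41846 in Vehicle-OVA, 95888 in Ribavirin and 34908 in Ribavirin-OVA. The 2 OVA libraries were again the low ones. The ratio was 0.406 (0.404 to 0.407) for Vehicle-OVA over Vehicle and 0.364 (0.363 to 0.365) for Ribavirin-OVA over Ribavirin, and the median cell held 1162, 304, 1284 and 369 Jchain UMIs although the OVA cells were deeper. Nearly every plasma cell-like cell had the transcript, with 96.1% to 99.5% of thinned cells showing a UMI.

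Outside plasma cells Jchain gave a measure of free RNA. In neutrophil-like cells, which do not make J chain, it stood at 437, 115, 360 and 263 CPM, and 63.8%, 26.3%, 62.6% and 50.9% of them had a Jchain UMI. That was 0.423% (0.414% to 0.433%), 0.274% (0.266% to 0.283%), 0.376% (0.367% to 0.385%) and 0.755% (0.720% to 0.791%) of the level in plasma cell-like cells of the same library. Another plasma cell gene, Mzb1, gave shares of 0.337%, 0.193%, 0.274% and 0.627%. In Vehicle, Vehicle-OVA and Ribavirin these were the lowest of the plasma cell markers, and in Ribavirin-OVA only Oosp1, from 1 UMI, was lower. Sdc1 gave 0.691%, 1.07%, 0.655% and 1.52%, and Derl3 0.510%, 0.392%, 0.693% and 1.12%. Sec11c gave 4.27%, 1.78%, 3.64% and 4.49%. The ranking of the libraries differed between these genes, so the share depends on the gene used. Tnfrsf17 had 23, 9, 30 and 9 UMIs in neutrophil-like cells, where the Jchain share predicts 26.1, 9.61, 27.0 and 4.30. Ccr10 had 32, 8, 44 and 0, where that share predicts 38.9, 13.6, 44.6 and 6.92. Tnfrsf17 UMIs in neutrophil-like cells were near this prediction in Vehicle, Vehicle-OVA and Ribavirin and above it in Ribavirin-OVA. Those of Ccr10 were near or below it. The part of free RNA in these UMIs was not tested.

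**Figure D4:**
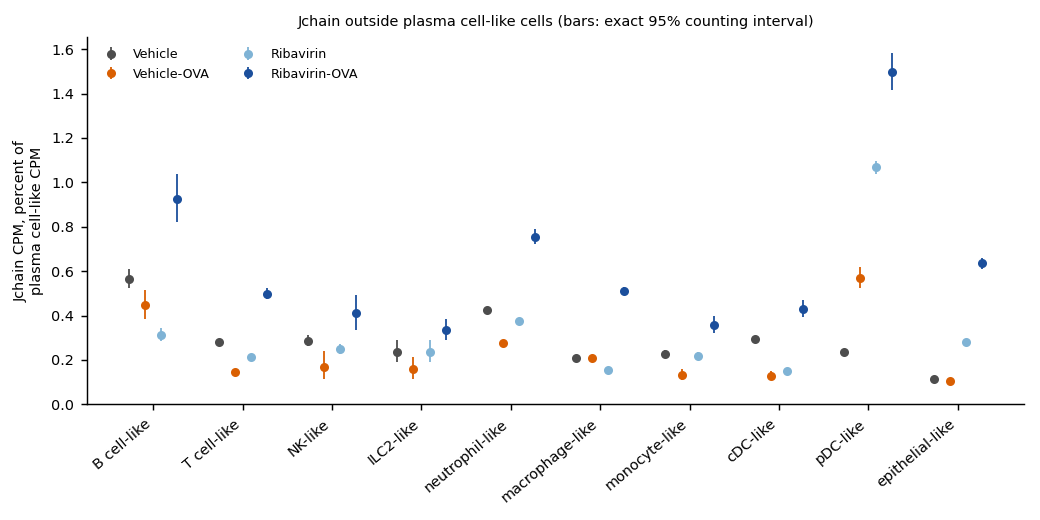
Jchain CPM of each class as a percent of the plasma cell-like level of the same library (vertical axis) in the 10 other classes with at least 50 cells in every library (horizontal axis); colours are libraries and bars exact 95% counting intervals. Most points lie below 0.8%, and the pDC-like cells of the Ribavirin and Ribavirin-OVA libraries lie highest.

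The pDC-like cells seemed to carry more, at 245, 238, 1024 and 522 CPM, but a handful of cells held it. The 2, 2, 4 and 2 pDC-like cells with at least 50 Jchain UMIs held 18.8%, 76.9%, 84.9% and 73.1% of the class's Jchain UMIs. Without them the level was 199, 56.3, 157 and 144 CPM, below the neutrophil-like cells of each library. In B cell-like cells it was 584, 187, 300 and 323 CPM, and 386, 122, 300 and 323 CPM without the 2, 1, 0 and 0 cells with at least 50 UMIs. The median B cell-like cell held 1, 0, 1 and 1 Jchain UMIs.

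Pigr belonged to the epithelium that the CD45+ isolation carried along. In epithelial-like cells (163, 140, 479 and 301 cells) it stood at 2189 CPM in Vehicle, 4192 in Vehicle-OVA, 2534 in Ribavirin and 4259 in Ribavirin-OVA. The OVA libraries were high, with a ratio of 1.92 (1.86 to 1.97) for Vehicle-OVA over Vehicle and 1.68 (1.66 to 1.70) for Ribavirin-OVA over Ribavirin. With OVA in both, ribavirin gave 1.02 (0.999 to 1.03). The direction held in each of the 3 epithelial clusters. Cluster 23, led by Reg3g, Bpifa1 and Tff2, had 2880, 4099, 2844 and 3756 CPM, cluster 33, led by Cyp2g1 and Sec14l3, 1862, 8451, 3069 and 6852 CPM, and cluster 35, led by Bpifb3 and Gpx6, 1177, 1498, 982 and 1753 CPM. Cluster 31, unnamed and led by Bpifb9b, Odam and Ltf, also carried it, at 2268, 3513, 3194 and 2602 CPM. There Pigr was higher with OVA in the vehicle pair but lower with OVA in the ribavirin pair. Cells left unnamed held 31.3%, 9.87%, 37.7% and 8.31% of a library's Pigr UMIs.

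In plasma cell-like cells Pigr was only 1.43, 7.53, 13.02 and 24.9 CPM, or 0.0653%, 0.180%, 0.514% and 0.585% of the epithelial-like level. Over all cells kept it was 72.4, 241, 367 and 701 CPM, the same order of libraries, and T cell-like cells had 1.93, 12.2, 12.4 and 28.0 CPM. Summed epithelial markers in plasma cell-like cells were 186, 196, 337 and 503 CPM, again in that order. The part of free epithelial RNA in the Pigr ratios of plasma cell-like, B cell-like, macrophage-like and neutrophil-like cells was not tested.

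CCR10, which guides IgA plasma cells to the epithelium, followed BCMA. Ccr10 stood at 485 CPM in Vehicle, 143 in Vehicle-OVA, 601 in Ribavirin and 135 in Ribavirin-OVA. The ratio was 0.295 (0.273 to 0.318) for Vehicle-OVA over Vehicle and 0.225 (0.212 to 0.238) for Ribavirin-OVA over Ribavirin, with 1.24 (1.20 to 1.29) and 0.947 (0.866 to 1.04) for the ribavirin pairs. Thinned to 1000 UMIs, 35.9%, 9.62%, 39.6% and 12.8% of cells showed a UMI, and unthinned 82.6%, 44.1%, 89.6% and 53.0%. Ccr10 and Tnfrsf17 were seen in the same thinned cell in 11.1%, 2.06%, 12.8% and 2.13% of plasma cell-like cells, beside products of their separate shares of 9.39%, 0.761%, 11.1% and 1.14%. The highest level of Ccr10 in another class with at least 50 cells in every library was in the pDC-like cells of the Ribavirin library. It was only 5.07 CPM, from 26 UMIs in 8 of 572 cells. In that class and library 4 cells held 84.9% of the Jchain UMIs, and the part of such cells in the Ccr10 level was not tested.

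Over all members in plasma cell-like cells, 7 of the 9 that could be judged were past 2-fold for Vehicle-OVA over Vehicle, where 19.7% of all genes were. Tnfrsf13c, Prdm1, Irf4 and Pigr were higher and Tnfrsf17, Jchain and Ccr10 lower. For Ribavirin-OVA over Ribavirin it was 5 of 9 (22.2% of all genes), with Tnfrsf13c and Irf4 higher and Tnfrsf17, Jchain and Ccr10 lower. For Ribavirin over Vehicle (1.37%) and Ribavirin-OVA over Vehicle-OVA (3.58%) it was 1 of 9, Pigr, in each. The OVA pair given vehicle and the OVA pair given ribavirin share no library, whereas each shares a library with either of the other 2 pairs.

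A general shift lay under these counts. The median log2 ratio of all genes was 0.47 in both OVA pairs and 0.03 and 0.06 in the ribavirin pairs, and 89.4% and 86.9% of the genes past 2-fold in the OVA pairs were higher with OVA. With the median set to 0 those shares became 39.4% and 37.2%, and 13.2%, 14.5%, 1.33% and 3.68% of all genes were past 2-fold in the 4 pairs. The members past 2-fold were then 5, 4, 1 and 1. Tnfrsf13c higher and Tnfrsf17, Jchain and Ccr10 lower remained in both OVA pairs, with Pigr higher only in the vehicle pair.

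**Figure D5:**
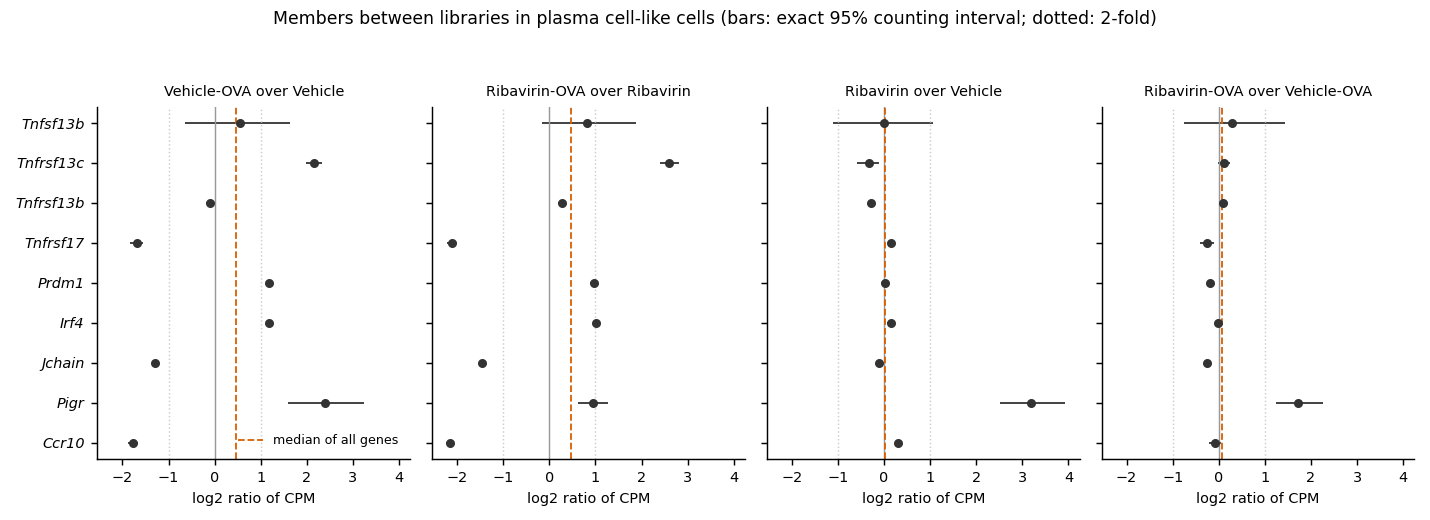
Log2 ratio of CPM (horizontal axis) of 9 members (vertical axis) in plasma cell-like cells for the 4 pairs of libraries, with exact 95% counting intervals; the dashed line is the median of all genes and dotted lines mark 2-fold. In both OVA pairs Tnfrsf13c lies to the right of 2-fold and Tnfrsf17, Jchain and Ccr10 to the left, while in the ribavirin pairs only Pigr lies past 2-fold.

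The same directions were present in the cycling cluster 26. There Tnfrsf13c was at 37.7, 212, 35.4 and 202 CPM, with ratios of 5.62 (4.57 to 6.94) and 5.71 (4.45 to 7.44) in the vehicle and ribavirin OVA pairs. Tnfrsf17 was at 162, 46.6, 166 and 28.9 CPM, with 0.288 (0.222 to 0.369) and 0.174 (0.142 to 0.213). Ccr10 was at 340, 65.0, 492 and 78.2 CPM, and Jchain at 36526, 12274, 36062 and 11436 CPM, about 3 times lower than without OVA. Prdm1 was at 140, 283, 116 and 286 CPM, Irf4 at 173, 316, 198 and 392 CPM and Tnfrsf13b at 201, 191, 171 and 215 CPM. For Tnfrsf13c, Tnfrsf17, Ccr10 and Jchain the ratios in this cluster lay farther from 1 than in the whole class, except for Tnfrsf13c in the ribavirin pair.

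Of 65 other genes of the pathway, 63 were found, and in plasma cell-like cells 24 of the 55 that could be judged were past 2-fold higher and 2 lower for Vehicle-OVA over Vehicle, where 19.7% of all genes were past it. For Ribavirin-OVA over Ribavirin it was 13 higher and 4 lower of 53, beside 22.2% of all genes. Ribavirin over Vehicle gave 2 higher and 3 lower of 55, beside 1.37% of all genes. Ribavirin-OVA over Vehicle-OVA gave 0 higher and 5 lower of 53, beside 3.58% of all genes. As most genes past 2-fold in the OVA pairs were higher, the counts moved with the median of all genes set to 0. In the vehicle OVA pair they became 13 higher and 7 lower, beside 13.2% of all genes. In the ribavirin OVA pair they became 7 higher and 7 lower, beside 14.5%. The ratios below are for the vehicle and the ribavirin OVA pair in that order. Each group's count is to be read against the same 19.7% and 22.2%, or 13.2% and 14.5% with the median set to 0. Of the TRAF and NF-kB genes, which carry the receptors' signals, 6 of 16 were past 2-fold higher in the vehicle pair and 2 of 16 in the ribavirin pair, where Relb was lower. With the median set to 0, 1 and 0 were higher and 0 and 2 lower. Nfkb1 had ratios of 3.46 and 2.51, Chuk 2.31 and 2.74, Birc3 2.55 and 1.70, and Birc2 1.81 and 1.62.

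Among 5 survival genes, the anti-apoptotic Bcl2l1 (Bcl-xL) was past 2-fold higher in both OVA pairs, at 5.52 (4.71 to 6.50) and 4.09 (3.45 to 4.87). Bcl2 was lower in both, at 0.554 and 0.435. Mcl1, on which plasma cells depend through BCMA, was at 1.32 and 0.976. Bcl2l11, with more UMIs than Bcl2 and Bcl2l1 in these cells, is not reported here. Of 11 B cell and plasma cell transcription factors, 8 were past 2-fold higher in the vehicle pair and 2 of the 10 judged in the ribavirin pair, the latter near the share of all genes. With the median set to 0 it was 4 and 1. Ell2, an elongation factor of secretory immunoglobulin mRNA, had ratios of 2.15 and 2.24 and Zbtb20 of 2.57 and 2.91, whereas Xbp1, the driver of the secretory programme, was at 1.30 and 1.23 and Pou2af1 at 1.54 and 1.25. Of the homing and retention genes, 4 of 14 were higher and 2 lower in the vehicle pair, and 4 of 13 higher and 2 lower in the ribavirin pair. With the median set to 0 it was 2 higher and 5 lower, and 2 higher and 4 lower. Cxcr4, the receptor that keeps plasma cells in bone marrow niches, was at 4.68 (4.32 to 5.09) and 3.72 (3.44 to 4.03), and the integrin chain Itga4 at 2.12 (2.02 to 2.23) and 2.72 (2.58 to 2.86), while Itgb7, its partner in gut homing, was at 0.530 and 0.495. The gut-homing receptor Ccr9 was lower in both, at 0.354 and 0.335.

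Of the plasma cell supporting cytokines and receptors, the same 4 of 6 genes were past 2-fold higher in both OVA pairs, namely Il6ra, Il10, Il5ra and Il21r. With the median set to 0, 4 and 3 of them were higher. Il10 had ratios of 5.10 and 2.80 and Il6ra, the IL-6 receptor chain, of 3.04 and 3.80, while Il6st was at 1.63 and 1.50 and Tgfb1 at 1.57 and 1.22. Of the 3 shared ligands and binding partners that could be judged, Cd40 was past 2-fold in the vehicle pair only, at 5.24 and 1.48, from 54 and 30 UMIs and from 43 and 23 UMIs. Sdc4, a heparan sulfate proteoglycan, was at 0.901 and 0.803.

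The genes most like each member in pattern were sought over 44 class-by-library levels, from 11 classes with 4 libraries each; the points share libraries, so Pearson's r is a description. For Tnfrsf17 they were Kbtbd12 (r = 0.945), C4bp (0.937) and Fam162b (0.936), and for Ccr10 the same genes, Fam162b (0.946), C4bp (0.946) and Kbtbd12 (0.943). Jchain was led by Gm44447 (0.927). Pigr was nearest to Bpifa1 (0.980), Reg3g (0.974) and Ltf (0.971), secreted defence proteins of airway epithelium and glands. Genes like Tnfsf13b in pattern were Gm29340 (0.897) and the macrophage marker Adgre1 (0.851), and those most like Tnfrsf13c were Chst3 (0.910), Bfsp2 (0.888) and H2-Eb2 (0.880). Prdm1 was led by Slc16a6 (0.828), Tnfrsf13b by Mgat1 (0.849) and Tnfsf13, with very few UMIs, by Wnt6 (0.911).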

How the data were processed

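CD45+ cells of mouse nasal mucosa were profiled in 4 droplet libraries, 1 for each treatment. The authors deposited UMI counts per gene and cell, which the submitters' processing notes credit to Cell Ranger 5.0.0 and genome build mm10; the gene annotation and the UMI limit for calling cells are not given in the sources used here. The labels name magnetic sorting and the design text flow sorting.

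Cells needed 200 genes and 500 UMIs or more, with a mitochondrial share below 10%, and doublets found by comparison with simulated ones (0.669% to 5.06% of barcodes marked, below the 3.53% to 10.3% expected from loading) were removed, so doublets remain. In the Vehicle-OVA library no limit could be set from its own scores and the median limit of the others was used. Over the 4 libraries together, 2000 variable genes without the members and pathway list, 30 principal components, 15 neighbours and Leiden resolution 1 (leidenalg 0.10.2, igraph 0.11.9) gave 47 clusters, with no batch correction. A cluster was named from at least 3 detected markers, unless its 10 leading genes (in at least 25% of cells, 10 CPM added) held more markers of another class; that rule for leading genes was set after a first clustering was seen. There were 15 named classes, and 14 clusters of 11384 cells stayed unnamed.

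UMIs were summed per class and library (Python 3.11.15, numpy 2.4.6, scipy 1.17.1). Ratios have exact conditional binomial 95% intervals and shares Clopper-Pearson intervals. With 1 library per group there is no test. Counts past 2-fold used genes with at least 20 UMIs over a pair and 1 CPM added, and the scripts for them were tested on simulated data. All 10 members are named. Of the pathway, up to 4 genes per group with the most UMIs in plasma cell-like cells were picked, with those counted by name. Ccr9, lower in both pairs, was added after its values were seen. Among the genes picked by UMIs, the ratios of Bcl2l11, Itgb1, Tnfsf12 and Cd40lg are not reported here. The 3 genes most like a member were named by Pearson's r of log2(CPM + 1), for Jchain, Prdm1, Tnfrsf13b and Tnfsf13 only the first; some of these genes, with that of Irf4, are not reported here. Members, lists, motifs and the promoters shown were chosen with earlier results of these data known. Alternatives are given in the closing section; centring on the median of all genes and the cycling cluster alone were added after seeing the data.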

Additional observations from a re-analysis of the deposited data

How the results depend on the processing

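By mean CPM over the 4 libraries, at least 9 of the 10 members were highest in each alternative in the class where they were highest as reported, and Tnfsf13 alone moved, from monocyte-like to epithelial-like cells. Of 420 alternative values of the 40 member ratios, 308 lay within the main 95% interval and 112 beyond it, and no ratio past 2-fold changed sign. Giving each cell the class with most marker UMIs moved the log2 ratio of Ribavirin over Vehicle in plasma cell-like cells to -0.96 for Jchain, -0.70 for Tnfrsf17, -0.84 for Prdm1, -0.72 for Irf4 and -0.55 for Ccr10. Across the alternatives Tnfsf13b in macrophage-like cells ran from -2.55 to -1.21 for Vehicle-OVA over Vehicle and from -2.27 to -1.17 for Ribavirin-OVA over Ribavirin.

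Over the 40 member and class combinations, which include members that could not be judged, 17, 13, 3 and 6 were past 2-fold. These counts are for Vehicle-OVA over Vehicle, Ribavirin-OVA over Ribavirin, Ribavirin over Vehicle and Ribavirin-OVA over Vehicle-OVA in that order. Of all genes, depending on the class, 16.4% to 38.7%, 10.1% to 22.2%, 0.753% to 5.60% and 2.74% to 37.0% were past it. Ribavirin over Vehicle gave 6 with a mitochondrial limit of 5% and 6 with classes from marker UMIs. Ribavirin-OVA over Vehicle-OVA gave 3 with 5 CPM added and 2 with the median of all genes set to 0. In the latter, 2.68% to 11.6% of all genes were past 2-fold, depending on the class. Shares of all genes in the other settings are not given here, and the causes were not tested. Jchain in neutrophil-like cells, as a percent of plasma cell-like cells, moved in the Vehicle library from 0.423 to 0.503 (mitochondrial limit 5%), 0.434 (doublets kept), 0.434 (Leiden resolution 2), 0.684 (classes from marker UMIs) and 0.313 (all barcodes with fewer than 3 plasma marker UMIs). In Vehicle-OVA it moved from 0.274 to 0.284, 0.243 (Leiden resolution 2), 0.376 and 0.245, in Ribavirin from 0.376 to 0.362, 0.386 (doublets kept), 1.08 and 0.263, and in Ribavirin-OVA from 0.755 to 0.712, 0.716 (at least 1000 UMIs and 500 genes), 0.670 (Leiden resolution 2), 0.823 and 0.677, otherwise in the same order of settings.

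With 1 library per treatment, differences between libraries and treatments cannot be told apart, and the few UMIs of Tnfsf13 in every class, low or uncounted, and of Tnfrsf17 and Ccr10 outside plasma cell-like cells limit what can be read of them there. No paired analysis was possible because each group has a single library and the groups share only 1 replicate number.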
